A study of Caenorhabditis elegans with 71 samples.

Results

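The annular furrow collagens are the products of 6 genes, dpy-2, dpy-3, dpy-7, dpy-8, dpy-9 and dpy-10, and were followed through the larval molting cycles of the nematode Caenorhabditis elegans. They were taken by name and make up 6 of the 19120 genes kept from the deposited table. Poly(A) RNA of whole larvae was sequenced in 71 libraries from 4 populations. Per the labels' protocols, embryos were freed with hypochlorite, the hatchlings were held in first-stage arrest without food, and they were then placed on NGM plates with OP50 bacteria, from which time is counted. Wild type N2 at 20C was sampled every 2 h from 0 to 38 h in one population (DH2, 20 libraries) and from 38 to 48 h in another (DH5, 6 libraries). Wild type N2 at 25C was sampled every 1.5 h from 0 to 28.5 h (DH3, 20 libraries). The strain lin-4(e912), which the labels call a knockout of lin-4, a microRNA gene that times larval cell fates, was sampled at 20C every 2 h from 0 to 48 h (DH4, 25 libraries).

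The cuticle of C. elegans is a collagen coat secreted by the hypodermis, the outer epithelium, and it is made anew at each larval molt. The furrow collagens assemble into the circumferential grooves that divide the cuticle into rings. They are known as the early collagens of each cycle, made ahead of most other cuticle collagens. Loss of any one of them removes the furrows, shortens the animal into the dumpy form that named the genes, and switches on antimicrobial, osmotic and detoxification genes in the epidermis.

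Each time point was 1 library of 1 population, so standard errors and p-values measure the spread of time points around a fitted curve and not the spread between repeated cultures. Genotype, temperature and population cannot be told apart. In whole larvae, fewer cells of a type and less RNA per cell cannot be told apart either. The unit is RPKM, in which read numbers are divided by gene length and library size, so levels of different genes are compared per length here. Estimated depth ran from 12.3 to 36.6 M reads per library. Markers of body wall muscle, intestine, neurons, germline and epidermis, 16 genes in all, were above 0 in all 71 libraries. At such depth a value above 0 is easily met and does not measure tissue content. The lowest values of the epidermal markers grd-1 and che-14 were 0.131 and 0.318 RPKM.

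dpy-2 (T14B4.6) and dpy-10 (T14B4.7) lie on chromosome II of the WBcel235 annotation with 3 annotated genes between them, dpy-3 (EGAP7.1), dpy-7 (F46C8.6) and dpy-8 (C31H2.2) on chromosome X and dpy-9 (T21D12.2) on chromosome IV. dpy-8 and dpy-10 each overlap 1 further annotated gene, and neither of these is among the genes kept. Whether strand was used in counting is unknown here. At their highest, the 6 collagens together took 0.536% of the summed RPKM in wild type at 20C, 0.620% at 25C, 0.511% in lin-4 and 0.251% in the later 20C population.

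All 6 genes rose in the same waves from low levels, fell back and rose again in each cycle. In wild type at 20C, dpy-7, whose protein is the usual antibody marker of the furrows, stood at 3.93, 9.51, 4.51 and 8.91 RPKM at 0, 2, 4 and 6 h. It then read 90.1, 248 and 531 RPKM at 8, 10 and 12 h, its first high. The descent took it through 280, 111 and 17.5 RPKM at 14, 16 and 18 h. A second wave of dpy-7 followed, with 49.5, 278, 459, 319 and 74.6 RPKM at 20, 22, 24, 26 and 28 h. A further wave gave 129, 347, 317, 185 and 58.9 RPKM at 30, 32, 34, 36 and 38 h. The 3 waves are separated by low points at 18 and 28 h, and the later low point lies above the earlier one.

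The other 5 collagens had the same shape at close to the same level. At 12 h dpy-2 stood at 602 RPKM, dpy-3 at 564, dpy-8 at 673, dpy-9 at 544 and dpy-10 at 520 RPKM, so the highest of the 6 was 1.29 times the lowest. At 18 h the 6 genes lay between 16.0 and 21.5 RPKM, at 24 h between 370 and 495 RPKM, at 28 h between 61.1 and 83.1 RPKM and at 38 h between 46.9 and 59.5 RPKM. Between 10 and 38 h the ratio of the highest to the lowest member reached at most 1.82, at 20 h. The genes differed more before the first wave, when the ratio was 14.2 at 2 h and 9.59 at 4 h. dpy-10 was the highest of the 6 at 0, 2, 4 and 6 h, with 7.51, 13.3, 7.09 and 13.6 RPKM, and dpy-8 or dpy-9 the lowest.

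At 25C the first wave was higher and more abrupt. dpy-2 read 1.76, 3.43, 1.68, 2.29 and 2.86 RPKM at the 5 times from 0 to 6 h, then 48.4, 630 and 805 RPKM at 7.5, 9 and 10.5 h. It dropped back to 48.8, 11.5 and 4.78 RPKM at 12, 13.5 and 15 h. The next waves of dpy-2 topped at 324 and 439 RPKM at 18 and 24 h, and the libraries at 21 and 27 h held 117 and 27.5 RPKM. The low point after the first wave was deep in all 6 genes, 3.11 to 6.60 RPKM at 15 h. Between the second wave and the last the 6 stayed higher, at 85.6 to 135 RPKM at 21 h. dpy-3 reached the lowest value of any member, 0.149 RPKM at 1.5 h, which is worth an estimated 2.66 reads.

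In lin-4 the collagens came on later and kept cycling until the last library. dpy-10, which with dpy-2 also has alleles that twist the body into a roller, read 2.97, 2.25, 1.51, 1.64 and 2.79 RPKM from 0 to 8 h, then 21.4, 142, 534 and 545 RPKM at 10, 12, 14 and 16 h. It was at 316 and 19.3 RPKM at 18 and 20 h. Later highs of dpy-10 were 335 and 301 RPKM at 26 and 38 h, and at 48 h, the end of sampling, it had climbed back from 133 to 262 RPKM. At 48 h all 6 genes were again high, between 259 and 315 RPKM.

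The lin-4 libraries labelled 30 and 32 h break the course of these genes. dpy-9 read 369, 71.6, 249 and 94.7 RPKM at 28, 30, 32 and 34 h. All 6 did likewise, lying between 68.6 and 103 RPKM in the 30 h library, 222 and 325 RPKM in the 32 h library and 76.6 and 111 RPKM in the 34 h library. Across 13205 genes, which are not independent replicates, the 28 h library correlated with the 32 h library at r = 0.864 and with the 30 h library at r = 0.535. The 30 h library correlated with the 34 h library at r = 0.668. The libraries are used as labelled, and results that rest on them are also given without both.

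In the later wild-type population at 20C, a single wave was caught. dpy-3 read 24.0, 26.6, 97.5, 291, 251 and 37.6 RPKM at 38, 40, 42, 44, 46 and 48 h. The other members had the same course, highest at 44 h, except dpy-8, whose highest value was 316 RPKM at 46 h. At 38 h, sampled in both 20C populations, the members differed in this one by -0.67 (dpy-8) to -1.31 (dpy-10) log2 from the other.

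**Figure D1:**
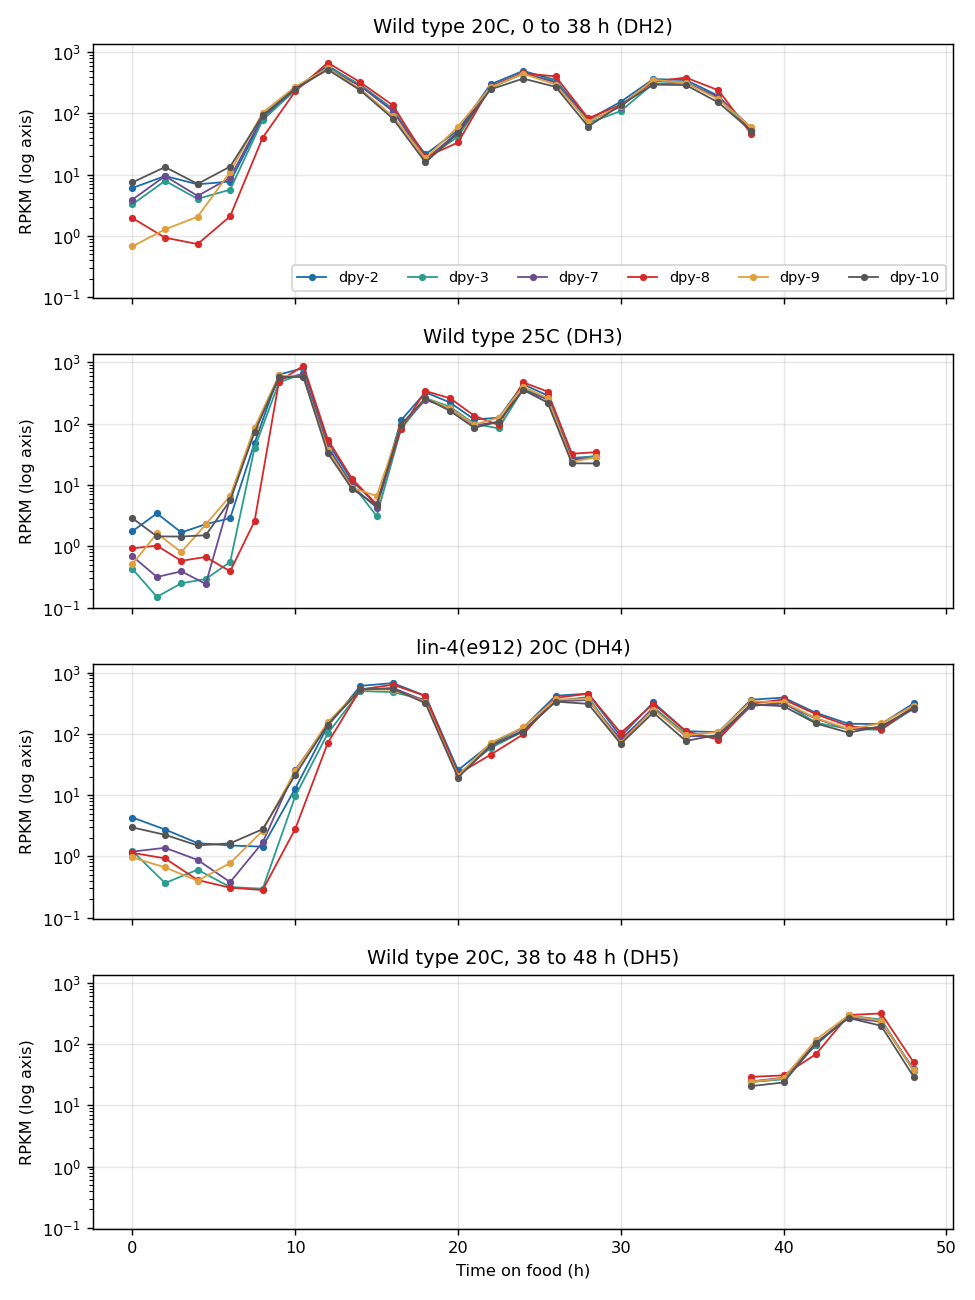
RPKM of the 6 furrow collagens (log axis) against hours on food in each of the 4 populations, 1 point per library and 1 line per gene. The lines lie close together once each first wave is under way, with first highs of 520 to 673 RPKM at 12 h in wild type at 20C; dpy-8 leaves the early low level last, with 2.56 RPKM at 7.5 h at 25C where dpy-9 was at 85.8.

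Peak time and amplitude were read for every cycle. A peak was a local maximum of log2(RPKM + 1) at least 1 above the lowest library on either side, its time was refined with a parabola through its neighbours, and its amplitude was its height above the mean of the low points before and after. These are descriptions with no test, and errors are SDs over the 6 genes, which share their libraries. In wild type at 20C the genes peaked at 12.1 ± 0.0973, 24.3 ± 0.193 and 33.0 ± 0.256 h (SD, n = 6 genes). At 25C they did so at 9.85 ± 0.114, 18.4 ± 0.0818 and 24.4 ± 0.0607 h. In lin-4, without the libraries labelled 30 and 32 h, the times were 15.2 ± 0.247, 27.5 ± 0.451 and 39.2 ± 0.218 h. With them the second peak lay at 27.1 h and a further peak was read at 32.1 h. The single peak of the later 20C population lay at 44.7 ± 0.181 h.

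The first interval between peaks was longer than the second in both wild-type series, 12.2 ± 0.126 against 8.76 ± 0.0798 h at 20C and 8.53 ± 0.0600 against 6.02 ± 0.0286 h at 25C. In lin-4 without the libraries labelled 30 and 32 h the intervals were 12.3 ± 0.399 and 11.7 ± 0.266 h. These errors are again SDs over the 6 genes in shared libraries and do not measure the precision of an interval. Sampling was every 2 h at 20C and every 1.5 h at 25C. Peak times at 20C were 1.23, 1.32 and 1.35 times those at 25C for the 3 peaks in turn (medians over the 6 genes). The peaks of lin-4 followed those of wild type at 20C by 3.13, 3.30 and 6.16 h.

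Amplitude became smaller with each peak within each of the 3 longer series. The low point before each first peak was a library from before the genes came on, at 0 to 8 h. The low point after the third 20C peak was the last library of that series, at 38 h. How far the choice of low points sets the decline was not tested. The median over the 6 genes was 5.88, 3.55 and 2.40 log2 in wild type at 20C, 7.83, 3.59 and 2.97 log2 at 25C, and 6.56, 3.08 and 1.69 log2 in lin-4 without the libraries labelled 30 and 32 h. It was 3.23 log2 for the one peak of the later 20C population, more than the 2.40 log2 of the third peak in the earlier one. Later peaks were lower than the first for all 6 genes in each of the 3 series, with differences in height of -0.21 to -0.83 log2 at 20C, -0.61 to -1.39 log2 at 25C and -0.33 to -0.85 log2 in lin-4. The lowest library after a peak held a median of 18.3, 73.8 and 52.0 RPKM after the 3 peaks at 20C, and of 21.3, 87.3 and 119 RPKM in lin-4 without those libraries. At 25C the second peak was the lowest of the 3, at 244 to 340 RPKM, and the last reached 354 to 472 RPKM.

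**Figure D2:**
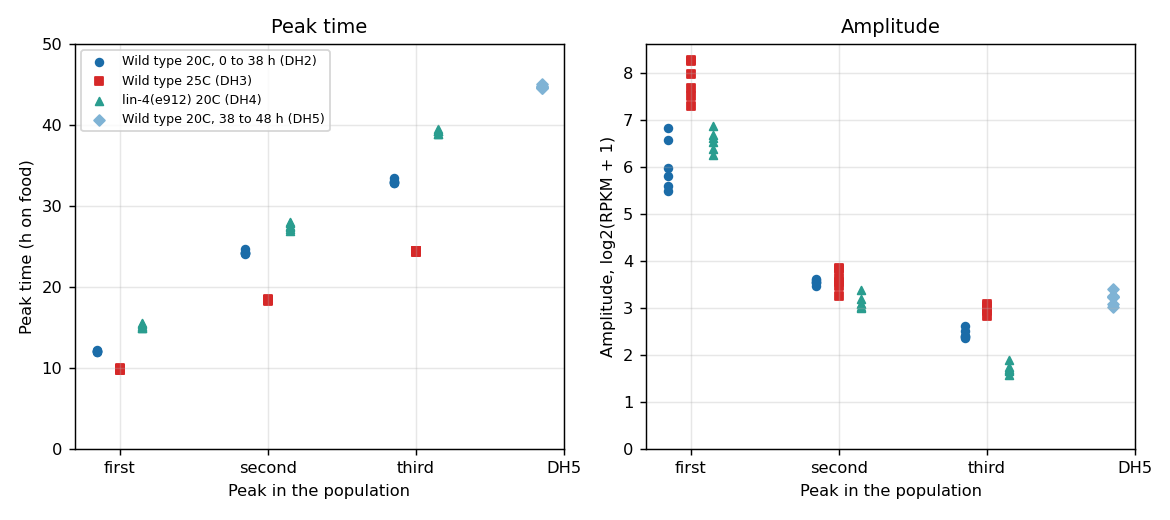
Peak time (left, hours on food) and peak amplitude (right, log2(RPKM + 1)) of the 6 genes, 1 point per gene, for each successive peak of each population and the single peak of DH5; lin-4 is drawn without the libraries labelled 30 and 32 h. Median amplitudes go from 5.88 to 2.40 log2 in wild type at 20C, from 7.83 to 2.97 at 25C and from 6.56 to 1.69 in lin-4.

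Timing differed slightly between the genes. In the first wave of each series dpy-8, on chromosome X, came on last. At 25C it was still at 2.56 RPKM at 7.5 h, when the other 5 were at 40.0 to 85.8 RPKM. In lin-4 it was at 2.81 RPKM at 10 h, against 9.60 to 25.8 RPKM for the others, and in wild type at 20C at 40.3 RPKM at 8 h, against 78.4 to 103 RPKM. In later waves it was not always the lowest on the way up: at 30 h at 20C it stood at 139 RPKM and dpy-3 at 109 RPKM, and at 25C dpy-3 was below it at 16.5 and 22.5 h. Its peak was the last in 10 of 10 cycles (3 in each longer series and 1 in the later 20C population, lin-4 without the libraries labelled 30 and 32 h), a median of 0.300 h after the mean of the 6 genes. With all libraries it was last in 10 of 11 cycles and first in the remaining one, the lin-4 peak at 32.1 h. dpy-10 peaked first in 5 of the 10 cycles, dpy-9 in 4 and dpy-3 in 1, with median lags of -0.116 h for dpy-10 and -0.146 h for dpy-9.

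These lags are shorter than the sampling step. The order was also read directly from the libraries on either side of each peak. The parabola rests on largely the same libraries, so this reading is not independent of the lags. Each gene's log2 level relative to the other 5 was taken before and after the peak. For dpy-8 the relative level was higher after the peak in 10 of 10 cycles, by a median of 0.37 log2 and a range of 0.13 (that lin-4 peak) to 1.04. For dpy-3 the level was higher after in 9 of 10, by a median of 0.15 log2. For dpy-2 and dpy-7 the medians were -0.01 and -0.02 log2, with 5 and 4 cycles higher after. For dpy-9 and dpy-10 the level was lower after the peak in all 10 cycles, with medians of -0.17 and -0.28 log2. Each step is thus small beside the waves themselves, and the 10 cycles come from 4 populations.

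**Figure D3:**
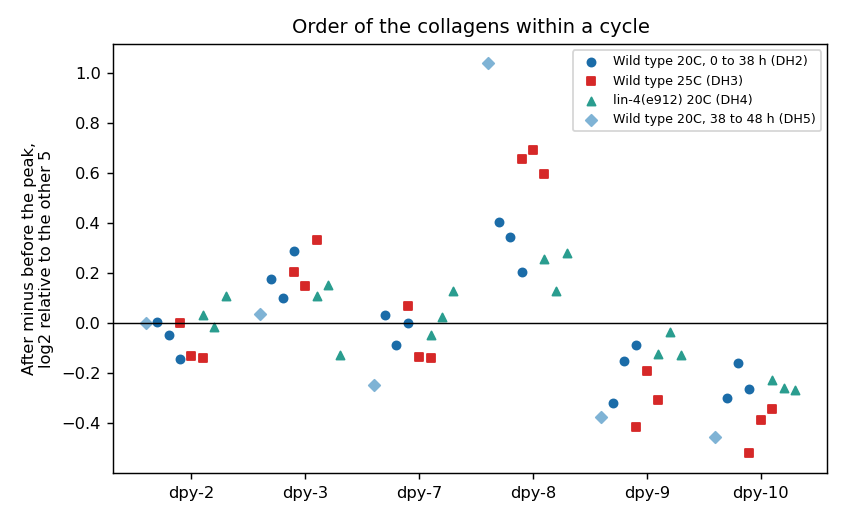
Change of each gene's level relative to the mean of the other 5, from the library before to the library after a peak (log2), 1 point per cycle and 10 cycles per gene. All points of dpy-8 lie above 0, from 0.13 to 1.04, and all points of dpy-9 and dpy-10 lie below 0.

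Cycling was then tested across all genes with limma as a cosine and sine at the period of each series beside a smooth trend, from 6 h (4.5 h at 25C), and a gene was called at an adjusted p under 0.05 and a fitted peak-to-trough range of at least 1 log2. The period was 11.25 h in wild type at 20C (17 libraries), 7.75 h at 25C (17 libraries) and 13.5 h in lin-4 (22 libraries). It was chosen from the same libraries. The wild-type intervals between peaks of the 6 were unequal, 12.2 then 8.76 h at 20C and 8.53 then 6.02 h at 25C. A fixed period is therefore an approximation, on which fitted ranges and fitted peak times rest. At 20C all 6 collagens were called, where 13.7% of 12767 genes were. Their fitted ranges ran from 3.56 ± 0.58 (SE) for dpy-10 to 4.15 ± 0.80 for dpy-8, with limma adjusted p from 0.00198 to 0.00486. The median range of the 6 was 3.69 log2, beside 0.30 over all genes tested.

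At 25C 5 of the 6 were called, against a background of 10.9% of 12980 genes, and the median range was 4.55 log2 beside 0.31. dpy-8 had 4.91 ± 1.25, dpy-3 4.70 ± 1.29, dpy-2 4.61 ± 1.20, dpy-10 4.50 ± 1.18 and dpy-9 4.36 ± 1.15 log2, with limma adjusted p from 0.0356 to 0.0459. dpy-7 had 4.36 ± 1.29 log2 and did not pass (limma adjusted p = 0.0597). These calls sit near the threshold: none of the 6 was called at a period 1 h longer or shorter, nor without any one of the libraries at 6, 9, 10.5, 12, 13.5, 19.5 or 25.5 h. One was called without the 24 h library and 2 without the 28.5 h library.

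In lin-4 all 6 were called, against 11.5% of 12884 genes, with ranges from 2.48 ± 0.67 for dpy-10 to 2.92 ± 0.74 for dpy-8 and limma adjusted p from 0.0159 to 0.0229. The median was 2.60 log2 beside 0.25 over all genes. The 13.5 h period is that of all genes tested. It is longer than the intervals between lin-4 peaks of the 6, 12.3 and 11.7 h without the libraries labelled 30 and 32 h. At a period 1 h shorter all 6 were called, with ranges of 2.84 (dpy-7) to 3.36 (dpy-8) log2. Without the libraries labelled 30 and 32 h all 6 were called as well, with ranges of 2.69 to 3.10 log2, while 1 was called without the 20 h library and 2 without the 28 h library.

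The fitted ranges were compared between series. Differences of lin-4 from wild type at 20C were -1.05 to -1.24 log2, each with a standard error of 0.88 to 1.09, and 0 of 6 passed (delta method on limma fits, 0 at an unadjusted p under 0.05, background 0.0396%). The size depended on the fit. With a linear trend in place of the spline the differences were -0.11 to -0.23 log2, and with a lin-4 window ending at 38 h, as in wild type, they ran from -0.67 (dpy-7) to 0.15 (dpy-8) log2. Those at 25C were larger than at 20C by 0.70 to 0.94 log2, with standard errors of 1.29 to 1.49, and 0 of 6 passed (0 unadjusted, background 0.00791%). The wild-type series at 20C is shared by these 2 comparisons. Differences of range at other periods were not tested.

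A linear change beside the cycle was tested in the same windows. In wild type at 20C the 6 had fitted changes of 0.29 to 1.22 log2 from 6 to 38 h and 0 were called by limma (0 at an unadjusted p under 0.05, background 25.9% in either direction). At 25C they had 1.65 to 3.72 log2 and 0 were called (1 unadjusted, dpy-8 with a limma adjusted p of 0.0504, background 27.8%). From the first peak on, at 10.5 h, the changes at 25C were 0.45 to 0.66 log2 and limma called 0. In lin-4 all 6 rose, by 2.96 ± 1.02 (dpy-10) to 4.29 ± 1.21 (dpy-8) log2 from 6 to 48 h, with limma adjusted p from 0.00431 to 0.0155, where 12.2% of genes rose. That window opens before the genes came on: in lin-4 at 6 and 8 h the 6 stood at 0.283 to 2.79 RPKM. From the first peak on, at 16 h, the fitted changes were 0.27 to 0.43 log2 and 0 were called, and 3 were called without the 6 h library. The difference in trend between the populations was not tested.

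The comparison of lin-4 with wild type at equal labelled times asked whether the mutant made more or less of these collagens. From 6 to 38 h (17 pairs) the mean differences were -0.48 ± 0.55 (dpy-10) to -0.72 ± 0.62 (dpy-8) log2, and limma called 0 of 6 (0 unadjusted, background 1.14%). Leaving out 1 time moved them between -0.20 (dpy-2, without 8 h) and -1.04 (dpy-8, without 18 h). The mean hides large swings. All 6 were lower in lin-4 at 11 of the 17 times and all 6 higher at 5. The differences were -4.64 to -5.94 log2 at 8 h, 4.10 to 4.35 log2 at 18 h and -1.755 to -2.198 log2 at 24 h. From 38 to 48 h against the later wild-type population (6 pairs) the mean differences were 1.35 ± 0.81 (dpy-3) to 1.69 ± 0.80 (dpy-2) log2, and limma called 0 of 6 (adjusted p from 0.165 to 0.263, 0 unadjusted, background 3.84%). All 6 were higher in lin-4 at 38, 40, 42 and 48 h and lower at 44 and 46 h. As peaks lay at different times in the 2 genotypes, a mean at equal times combines level with timing. With lin-4 time multiplied by 0.85 to align it with wild type at 20C over 6 to 38 h, the differences were -0.21 (dpy-2) to -0.40 (dpy-8) log2, with standard errors of 0.28 to 0.32, and limma called 0 of 6.

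Temperatures were compared after 25C time was multiplied by 1.3, the factor that best matched whole libraries (16 libraries at 25C and 17 at 20C). The peak times of the 6 genes had ratios of 1.23, 1.32 and 1.35. A single factor therefore does not align every wave, and the differences can combine level with timing. All 6 were lower at 25C, with differences of -1.07 ± 0.36 (dpy-9) to -1.34 ± 0.44 (dpy-8) log2 and limma adjusted p from 0.00716 to 0.0153, where 0.513% of 12868 genes were called lower. For scale, the later 20C population differed from the earlier at 38 h by -0.67 (dpy-8) to -1.31 (dpy-10) log2, from 1 library each. The errors here hold no spread between populations, so temperature and population cannot be told apart. Peak heights differed in both directions. The median height at 25C was 650 RPKM against 554 at 20C for the first peak, 260 against 448 RPKM for the second and 385 against 351 RPKM for the last, and the low point after the first peak was 4.72 against 18.3 RPKM. Calls were lost in some alternatives while the direction stayed. When aligned time began at 14 h, after the first peak, the differences were -0.88 to -1.08 log2 and 2 were called, dpy-3 and dpy-7; dpy-2, dpy-9 and dpy-10 passed the adjusted p but not the 1 log2 minimum, and dpy-8 had a limma adjusted p of 0.0581. With a factor 0.1 lower they were -1.12 to -1.36 log2, with limma adjusted p from 0.0372 to 0.0693 and 2 called. Leaving out single libraries gave -0.85 to -1.50 log2. Without the 20C library at 38 h or the 25C library at 15 or 27 h 2 were called, and without the 25C library at 6 h 3 were; in these 4 fits all 6 had an adjusted p under 0.05 and the others were under 1 log2.

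Pairs of the 6 genes correlated over the 71 libraries, centred within each population, at r from 0.956 (dpy-8 with dpy-10) to 0.995 (dpy-2 with dpy-3). These libraries are time points of shared cycles and the values are descriptions. dpy-2 and dpy-10, which lie close together on chromosome II, stood at 0.992. Measured the same way against the mean of the 6 over 13199 other genes, the closest was lpr-4 (r = 0.997), a lipocalin gene, which reached 656 RPKM. W04G3.2, named lpr-5 in RefSeq, followed with 0.995, and lpr-3, whose product belongs to the apical matrix laid down before the cuticle, with 0.987. The Kunitz-domain molting gene mlt-11 stood at 0.990, the collagens col-128 and col-46 at 0.989 and 0.987, Y73E7A.8 at 0.984, the C-type lectin gene clec-180 at 0.982, dao-2 at 0.981 and T17H7.1 at 0.979.

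The other body-shape and cuticle collagens listed that oscillated had later fitted peaks than the furrow collagens, counted from the nearest furrow peak. This order is given as a description. Of 18 listed, 14 were tested in wild type at 20C, and 11 of these oscillated, where 13.7% of all genes did. At 25C 6 of 13 oscillated (10.9% of all genes) and in lin-4 11 of 13 (11.5%). The fitted peaks of these 11 at 20C came after the mean of the furrow collagens: lon-3, which sets body length, by 1.13 h, sqt-1 by 1.41 h, rol-6 by 1.61 h and sqt-3 by 1.68 h, collagens whose alleles give rolling or squat animals. dpy-5, dpy-13 and dpy-4, dumpy collagens outside the furrows, came 2.06 to 2.09 h after, and col-34 3.18 h after. col-12 and col-13 were farthest, 5.41 and 5.53 h after, close to the opposite side of the 11.25 h cycle. In lin-4 the 11 called genes followed by 1.83 (lon-3) to 6.68 h (col-13). So near the opposite side of the cycle, after and before can hardly be told apart for col-12 and col-13 in either series. dpy-17, bli-2 and dpy-14 did not pass at 20C, with ranges of 0.57, 0.33 and 0.08 log2 and fitted peaks at 0.0318, -0.293 and 4.65 h from that mean.

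**Figure D4:**
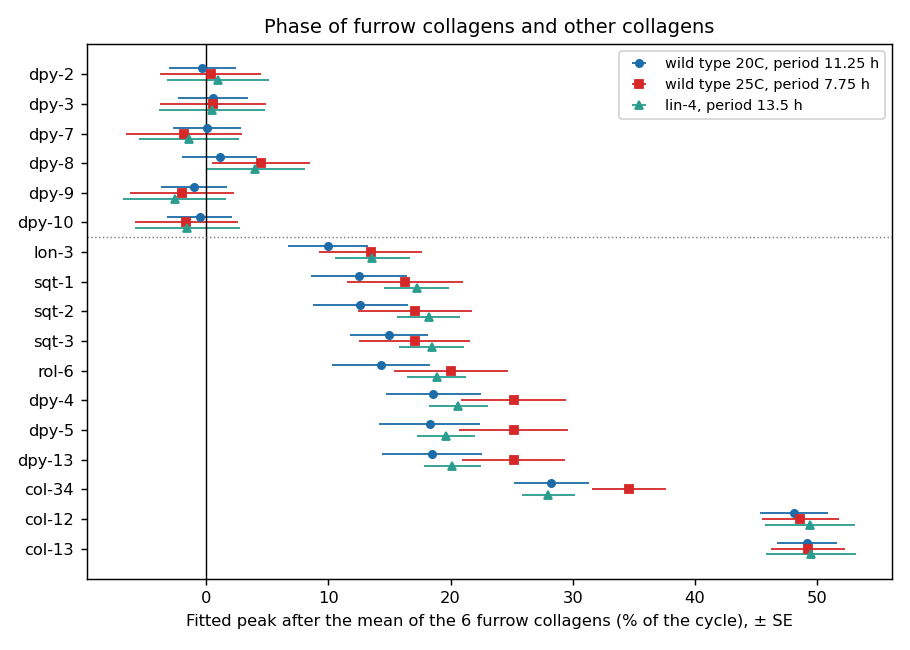
Fitted peak of each gene after the mean of the 6 furrow collagens, in % of the cycle of its series, with standard errors, for the furrow collagens (top) and 11 other collagens (bottom) in wild type at 20C and 25C and in lin-4. The furrow collagens sit at 0, lon-3 comes next, 1.13 h after them at 20C, and col-12 and col-13 lie on the opposite side of the cycle.

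Prolyl hydroxylase genes had fitted peaks close to those of the furrow collagens. Of 13 modifying and processing genes tested, 8 oscillated at 20C, 9 at 25C and 7 in lin-4, where 13.7%, 10.9% and 11.5% of all genes tested did. At 20C phy-2 and dpy-18, catalytic subunits of the prolyl 4-hydroxylase, had ranges of 1.49 and 1.24 log2 and peaked at -0.15 h and 0.224 h from the mean of the furrow collagens. pdi-2, the disulfide isomerase that completes that enzyme, came 0.107 h after and dpy-11, a thioredoxin-like protein, 0.376 h after. The standard errors of these peaks were 0.264 (phy-2) to 0.338 h (dpy-18). At 25C dpy-18 and dpy-11 were not called (limma adjusted p of 0.198 and 0.0558). In lin-4 pdi-2 was not called, with a range of 0.91 log2. Genes acting on the secreted coat differed in phase. The collagen-cleaving protease gene dpy-31 was at -0.632 h, with a range of 0.71 log2 under the 1 log2 minimum, and at -0.586 h at 25C, where it was called with 1.02 log2. The peroxidase gene mlt-7 peaked at -5.17 h from that mean, close to the opposite side of the 11.25 h cycle, where before and after can hardly be told apart. The astacin protease genes nas-6 and nas-7 peaked 2.90 and 4.22 h after, and the Kunitz-domain gene bli-5 4.03 h after. The dual oxidase gene bli-3 (0.29 log2) stayed under the 1 log2 minimum at 20C.

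Of 10 molting cycle regulators tested, 4 oscillated at 20C, 4 at 25C and 3 in lin-4, beside 13.7%, 10.9% and 11.5% of all genes. At 20C the nuclear receptor gene nhr-23, without which larvae fail to molt, had a range of 1.60 log2 and peaked at -1.37 h from the mean of the furrow collagens. myrf-1, listed under its older name pqn-47 and required to drive each molt, peaked at -0.953 h with a range of 1.11 log2. lin-42, the relative of the clock gene period, and the epidermal factor grh-1 peaked 0.732 and 0.944 h after them, with 2.61 and 1.93 log2. blmp-1, nhr-25, elt-1, elt-3, nhr-67 and nhr-85 had ranges of 0.24 to 0.93 log2 at 20C and were not called. Of these, blmp-1, nhr-25, elt-1 and elt-3 passed the adjusted p (limma, 0.00149 to 0.0451) but not the 1 log2 minimum. The genes called differed between series. At 25C elt-3 (1.33 log2) and nhr-25 (1.03 log2) were called, while lin-42 and grh-1 were not (limma adjusted p of 0.0854 and 0.0634). In lin-4 myrf-1 was not called, with 0.97 log2.

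Genes linked to the response to furrow loss, both responding genes and regulators of the response, were read in the same libraries. Of 14 tested, 5 oscillated at 20C, 5 at 25C and 6 in lin-4, beside the same 13.7%, 10.9% and 11.5% over all genes. At 20C the epidermal antimicrobial peptide genes nlp-29, nlp-28 and nlp-27 had ranges of 1.59, 1.99 and 2.22 log2 and peaked at -4.08, -3.81 and -3.57 h from the mean of the furrow collagens. The other peptide genes listed, nlp-30, nlp-31, nlp-34 and cnc-2, were not called at 20C. Of these, nlp-31 and cnc-2 passed the adjusted p (limma, 0.0114 and 0.014) but not the 1 log2 minimum, with fitted peaks at -1.35 and -1.26 h. osm-7, a secreted regulator of the osmotic response, and the patched-related gene ptr-23 had 1.95 and 2.00 log2 and peaked 4.51 and 4.93 h after. The glycerol synthesis gene gpdh-1 (0.36 log2) and the detoxification gene gst-4 (0.13 log2) were not called at 20C. The genes called differed in lin-4, where nlp-29 was not called (limma adjusted p = 0.0659) and nlp-30 and hmit-1.1 were.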

How the data were processed

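The table deposited by the authors gives RPKM per gene and library, the unit named by its title. The submitters' processing notes name the aligner BWA 0.5.9. Build, annotation, counting rule and strand setting were not given in the sources used here, so no coordinates are printed. Of 21777 entries, 2643 with RIT identifiers and 11 others without a name (1.58 to 3.03% of summed RPKM) were left out, 3 identifiers listed again were kept once, and empty cells were taken as 0. No column of values was left unmapped (0). Depth was estimated from the whole-read steps of 2065 low genes, of which 95.4% gave whole reads in every library within a tolerance of 0.001; 97 of 1433 genes with 1 annotated transcript agreed on the absolute depth, so depths are estimates. The number of reads behind the RPKM sets the precision of the lowest values.

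R 4.3.3 and limma 3.58.1 were used for all fits, made on log2(RPKM + 1), which understates changes of low genes. Genes entered at a mean of 1 RPKM or more, with Benjamini-Hochberg adjustment over all genes tested. Called means an adjusted p under 0.05 and at least 1 log2, with no minimum size for differences of range. Oscillation was fitted beside a natural spline (3 degrees of freedom, 4 in lin-4), and the period had the highest mean partial R2 in steps of 0.25 h from 4 to 12 h (16 h in lin-4). Temperature was fitted beside a spline of aligned time (df 4) and the cycle. Fits were tested on simulated data. Peaks and plots were made with pandas 2.3.3, NumPy 2.4.6 and Matplotlib 3.10.9 under Python 3.11.15.

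lin-4 and wild-type libraries were paired by labelled time. Deviations from group means correlated within pairs at a median r of 0.441 from 6 to 38 h (14 of 17 pairs over 0.1, lowest -0.289) and -0.256 from 38 to 48 h (1 of 6 over 0.1, lowest -0.743), across genes. The members, the gene lists and the tests were chosen with earlier results of these data known. Named genes were the members, the 10 genes most like their mean, and, from 4 lists, oscillating genes with the earliest and latest peaks and those compared with a member. Alternatives were other pseudocounts, filters, scalings, periods, windows and time factors, and leaving out each library. No sequences were used here.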

Additional observations from a re-analysis of the deposited data

How the results depend on the processing

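Counts here are of the 6 furrow collagens called. The 6 calls of oscillation in wild type at 20C and the 0 calls for trend at 20C, both range differences and both lin-4 level comparisons held under the alternatives run for each. Without the pairing by time (no replicate block), 0 were called in both lin-4 level comparisons, as with it. At 25C, oscillation gave 1 call with no filter on low values, and 0 at a period 1 h longer, 0 at 1 h shorter and 0 with all time points, and from 0 to 6 without single libraries. Trend at 25C gave 1 with a pseudocount of 0.1, 1 with median-of-ratios rescaling and 0 to 2 without single libraries (2 without 27 h). In lin-4, oscillation gave 2 at a period 1 h longer and 1 to 6 without single libraries, and trend gave 3 to 6 without single libraries and 0 from the first peak on. With 0 calls, sizes moved by over 1.5 times for the lin-4 level difference from 6 to 38 h (aligned time, or single times left out) and for the lin-4 range difference (linear trend, or a window to 38 h). The 25C level difference gave 2 with a factor 0.1 lower, 2 from an aligned time of 14 h and 2 to 6 without single libraries. Starting trends at the first peak and aligned time at 14 h, and leaving out the lin-4 libraries labelled 30 and 32 h, were chosen after the data were seen. Without the latter the first lin-4 interval went from 11.9 to 12.3 h. The number of peaks was 66, against 67 with a pseudocount of 0.1, 71 with a minimum of 0.5 log2 and 60 without those libraries. The trend at 20C turned negative from the first peak on for dpy-2 (-0.13), dpy-3 (-0.25), dpy-7 (-0.0310), dpy-8 (-0.15) and dpy-10 (-0.024 log2). Without the 6 h library it was -0.16 for dpy-2, -0.40 for dpy-3, -0.20 for dpy-7 and dpy-9 and -0.27 for dpy-10, and without the 30 h library -0.18 for dpy-10. Over all its leave-one-out fits it ran from -0.16 to 1.11 for dpy-2, -0.40 to 0.93 for dpy-3, -0.20 to 0.90 for dpy-7, -0.20 to 0.76 for dpy-9 and -0.27 to 0.56 for dpy-10. With a lin-4 window of 6 to 38 h the range difference of dpy-8 was 0.15 log2. The causes of these changes were not tested. Over the whole table, 1745 genes oscillated at 20C, against 925 with all time points, and 1412 at 25C, against 403, 2 and 10 at a longer period, a shorter one and with all time points. Depth limits the values near 0.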
